A study of Mus musculus with 9 samples.

Results

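The Schlafen genes were examined in RAW264.7 cells, a mouse macrophage-like line grown from a male tumour that was induced by the Abelson murine leukemia virus. They were chosen by symbol, as the rows of Slfn1, Slfn2, Slfn3, Slfn4, Slfn5, Slfn8 and Slfn9, which were 7 of the 55401 genes in the table. RNA was sequenced from cells given DMSO, the vehicle (DMSO), from cells given DMSO and lipopolysaccharide (LPS), the cell wall component of Gram-negative bacteria that Toll-like receptor 4 senses, and from cells given LPS and skatole (LPS + Ska). Skatole is 3-methylindole, a product of tryptophan breakdown by gut bacteria. All cells were wild type by the labels and were treated for 24 h, although the study's methods give a longer time for the sequenced RNA, and each group had 3 columns, numbered 5, 6 and 7. There was no group with skatole alone, and the labels did not say whether the LPS + Ska cells also received DMSO. One established line stood for macrophages here, and nothing in the labels said that the columns came from separate cultures, so p-values measured the spread between columns, which may be technical.

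The columns of 2 groups were not separate measurements. In LPS, replicate 5 equalled the mean of replicates 6 and 7 within 1e-05 TPM in 17950 of 17950 genes above 0 in all 3 columns, and in LPS + Ska in 17658 of 17658. In DMSO at most 0.0636% of genes did so. Where replicate 5 was above 0 and replicate 6 or 7 was at 0, the remaining column was 3 times replicate 5, within 0.01 of the ratio, in 3203 of 4042 genes in LPS and in 3124 of 4047 in LPS + Ska, against 1 of 1295 in DMSO. So the LPS and the LPS + Ska columns each held at most 2 independent values, and every "n = 3" below means 3 columns. The tests below treated all 9 columns as separate, so their standard errors, intervals and p-values count more values than are independent. Values were TPM, the number of transcripts of a gene in a sum scaled to the same total in every column, which are scaled for transcript length and so allow levels of different genes to be compared, but which keep no read depth. The column sums lay between 999895 and 1000145 TPM, and 12498 to 13012 genes reached 1 TPM in a column.

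As background, Schlafen proteins are a vertebrate family first described in developing T cells, and many of its genes are induced by interferon. All share an N-terminal core domain, and several members bind or cut transfer RNA. The mouse genes are sorted into a short group (Slfn1 and Slfn2), an intermediate group (Slfn3 and Slfn4) and a long group (Slfn5, Slfn8, Slfn9, Slfn10 and Slfn14) with a helicase-like C-terminal region. In macrophages LPS sets off the production of type I interferon, which acts back on the cell through its receptor, Janus kinases and a transcription factor complex that holds IRF9. That complex binds the interferon-stimulated response element.

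The family forms 1 cluster on chromosome 11. In the GENCODE M21 annotation of GRCm38, the build that the submitters' processing notes name as mm10, the genes lay in the order Slfn5 (ENSMUSG00000054404, chr11:82951349-82964840, plus strand), Slfn9 (ENSMUSG00000069793, chr11:82978390-82991830, minus strand), Slfn8 (ENSMUSG00000035208, chr11:83002158-83020810, minus strand), Slfn2 (ENSMUSG00000072620, chr11:83065112-83070678, plus strand), Slfn1 (ENSMUSG00000078763, chr11:83116849-83122670, plus strand), Slfn4 (ENSMUSG00000000204, chr11:83175186-83190216, plus strand) and Slfn3 (ENSMUSG00000018986, chr11:83191330-83215154, plus strand). The longest annotated proteins had 337 residues for Slfn1, 378 for Slfn2, 602 for Slfn4, 640 for Slfn3, 884 for Slfn5 and 910 for both Slfn8 and Slfn9. The pseudogene Slfn10-ps lay between Slfn8 and Slfn2, Slfn14 closed the cluster, and Slfnl1, a Schlafen-like gene, lay on chromosome 4.

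Sequences upstream of 3 members are shown because they held the interferon-stimulated response element core, searched as GAAANNGAA on both strands of the 300 bases from 250 before to 50 after the RefSeq start site. The core was found in Slfn5, Slfn8 and Slfn9, 3 of 7 members, and in Slfn14. Of all 27025 genes with such a window, 9.76% held it, and of the 32851 windows, 8.56% did. The bases before the start site are printed 5′ to 3′ on the strand of the gene, with the matches in capitals, for Slfn5 at chr11:82951852-82951984 (plus strand, RefSeq, GRCm38), Slfn8 at chr11:83020811-83021060 and Slfn9 at chr11:82991831-82992080 (both minus strand). The Slfn8 and Slfn9 stretches ended next to the annotated 5′ end of the gene and overlapped none of its exons. The Slfn5 stretch lay in an intron of a non-coding Slfn5 transcript, and ended before the next exon of that transcript.
Slfn5: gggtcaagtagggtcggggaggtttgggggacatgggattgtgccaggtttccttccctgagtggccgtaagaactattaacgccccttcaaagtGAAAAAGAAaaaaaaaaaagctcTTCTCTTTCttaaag
Slfn8: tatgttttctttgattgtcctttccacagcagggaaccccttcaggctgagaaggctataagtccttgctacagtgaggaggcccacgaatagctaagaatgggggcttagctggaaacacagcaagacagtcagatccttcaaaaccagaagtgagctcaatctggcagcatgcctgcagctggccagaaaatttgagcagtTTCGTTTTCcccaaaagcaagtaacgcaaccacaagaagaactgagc
Slfn9: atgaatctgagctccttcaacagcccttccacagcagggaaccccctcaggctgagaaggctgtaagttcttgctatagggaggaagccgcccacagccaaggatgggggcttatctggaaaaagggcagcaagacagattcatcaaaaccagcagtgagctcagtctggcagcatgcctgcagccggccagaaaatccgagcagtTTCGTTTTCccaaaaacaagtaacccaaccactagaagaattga
Slfn5 held a pair of matches, GAAAAAGAA at bases -155 to -147 and TTCTCTTTC, a match on the opposite strand, at -132 to -124, where base -1 is the last before the start site. Slfn8 and Slfn9 held the same match, TTCGTTTTC on the opposite strand, at -47 to -39 and at -44 to -36. Once aligned, the 250 bases upstream of Slfn8 and Slfn9 were identical at 82.4% of positions, against 46.0% to 55.2% for the other pairs of Schlafen genes. The gamma-activated site, searched as TTCNNNGAA, was in none of the 7 members and in 9.55% of genes. An NF-kB site was in Slfn1 and Slfn9 and also in 9.55% of genes. A match describes letters in these windows and is not a measured binding site.

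The proteins of Slfn8 and Slfn9 were also close. Of the aligned residues, 85.8% were identical between Slfn8 and Slfn9 and 83.9% between Slfn3 and Slfn4. The next closest pair was Slfn2 and Slfn4 with 59.9%, and Slfn5 was closest to Slfn8 with 44.9%. This bears on the counting, because reads from near-identical stretches can be split between genes. Of the 100-base stretches in the longest annotated transcript, 3.71% of those of Slfn8 and 3.90% of those of Slfn9 also occurred in transcripts of another gene, mostly in Slfn10-ps. Slfn8 and Slfn9 shared 50 such stretches. Of those of Slfn3, 3.62% also occurred elsewhere, mostly in the pseudogene Gm11427, and the share was 0 for Slfn1 and below 0.3% for Slfn2, Slfn4 and Slfn5. Slfn3 and Slfn4 had none in common. How reads that match more than 1 gene were assigned is not given in the sources used here.

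**Figure D1:**
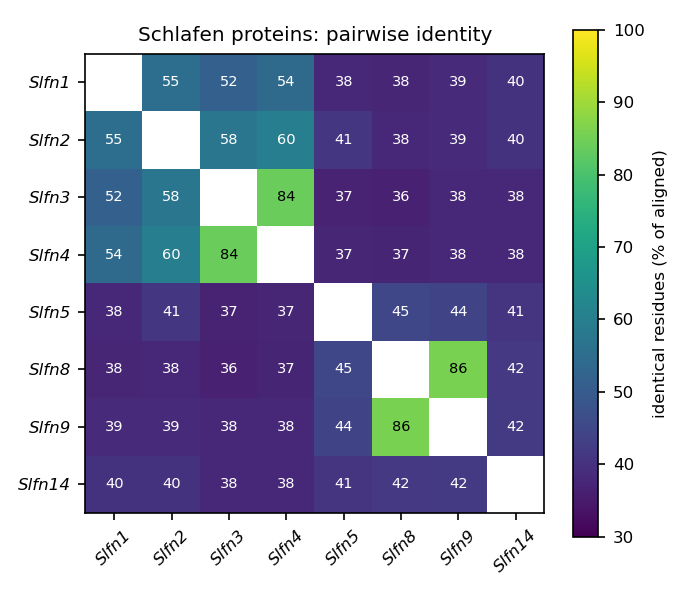
Percent of aligned residues that were identical for each pair of Schlafen proteins, from the coding sequences of the GENCODE M21 annotation, with the colour scale running from 30 to 100%. Slfn3 with Slfn4 and Slfn8 with Slfn9 stood out as the closest pairs, with 83.9% and 85.8%.

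The macrophage label was checked first. Of 10 macrophage markers, 9 reached 1 TPM in a column, and Mertk was listed at 0 in all. Their summed level was 12730 to 13701 TPM in DMSO, 7501 to 7893 in LPS and 13787 to 14196 in LPS + Ska. Lyz2, the lysozyme of myeloid cells, made up most of it, with means of 9151, 4423 and 10061 TPM. The sum thus mainly followed Lyz2 and does not speak for the other markers. By the limits given below, Lyz2 alone was called higher between LPS + Ska and LPS. Fcgr1 was called lower, and the other 7 tested markers were not called. Since Schlafen genes are also known from T cells, the T cell markers were summed: Cd3d, Cd3e and Cd3g were at 0 in every column, and 1 of 5 markers reached 1 TPM. That one was Lck, a Src family kinase, which rose with LPS from 1.72 to 4.61 TPM (log2 fold change 1.05, limma adjusted p = 1.7e-04). The summed levels were 1.36 to 2.16, 4.45 to 4.78 and 2.88 to 3.26 TPM in DMSO, LPS and LPS + Ska. B cell, neutrophil and fibroblast markers summed to at most 0.672, 3.55 and 0.462 TPM. The part of the marker levels in the Schlafen values was not tested. These are bulk samples, so fewer cells expressing a gene and less RNA per cell cannot be told apart.

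In resting cells the family was carried by Slfn4 and Slfn2. Slfn4 is a member known from myeloid cells, and its level in DMSO was 80.7 ± 10.6 TPM (SD, n = 3). Slfn2, which is known for keeping T cells and monocytes quiescent and for guarding transfer RNA against cleavage, stood at 71.9 ± 19.4 TPM. Their columns overlapped, so their order was not resolved. Slfn9 (14.1 ± 0.642 TPM) and Slfn3 (11.5 ± 1.53 TPM) came next and did not overlap each other. Slfn8 (2.27 ± 0.626 TPM) and Slfn5 (1.11 ± 0.650 TPM) were low and overlapped, and Slfn1 was listed at 0 in all 3 columns. Together the 7 members reached 182 ± 13.8 TPM, of which Slfn2 and Slfn4 made up 83.7% to 84.3%.

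The order below Slfn4 and Slfn2 changed between groups. In LPS the members summed to 401 ± 3.41 TPM, and Slfn4 (216 ± 4.75 TPM) now lay above Slfn2 (121 ± 8.13 TPM) without overlap. Slfn5 reached 17.9 ± 0.826 TPM and lay among Slfn9 (19.5 ± 0.0608 TPM) and Slfn3 (17.4 ± 0.855 TPM), overlapping with Slfn3 but not with Slfn9. Slfn8 stood at 9.17 ± 1.40 TPM. In LPS + Ska the sum was 281 ± 9.14 TPM, and the order was Slfn4 (172 ± 15.5 TPM), Slfn2 (72.0 ± 12.8 TPM), Slfn3 (13.7 ± 2.12 TPM), Slfn9 (11.7 ± 2.80 TPM), Slfn5 (7.97 ± 0.554 TPM), Slfn8 (3.32 ± 0.961 TPM) and Slfn1. There, Slfn3 and Slfn9 overlapped and no other neighbours did. Slfn2 and Slfn4 together made up 83.8% to 84.1% of the sum in LPS and 85.1% to 88.9% in LPS + Ska.

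**Figure D2:**
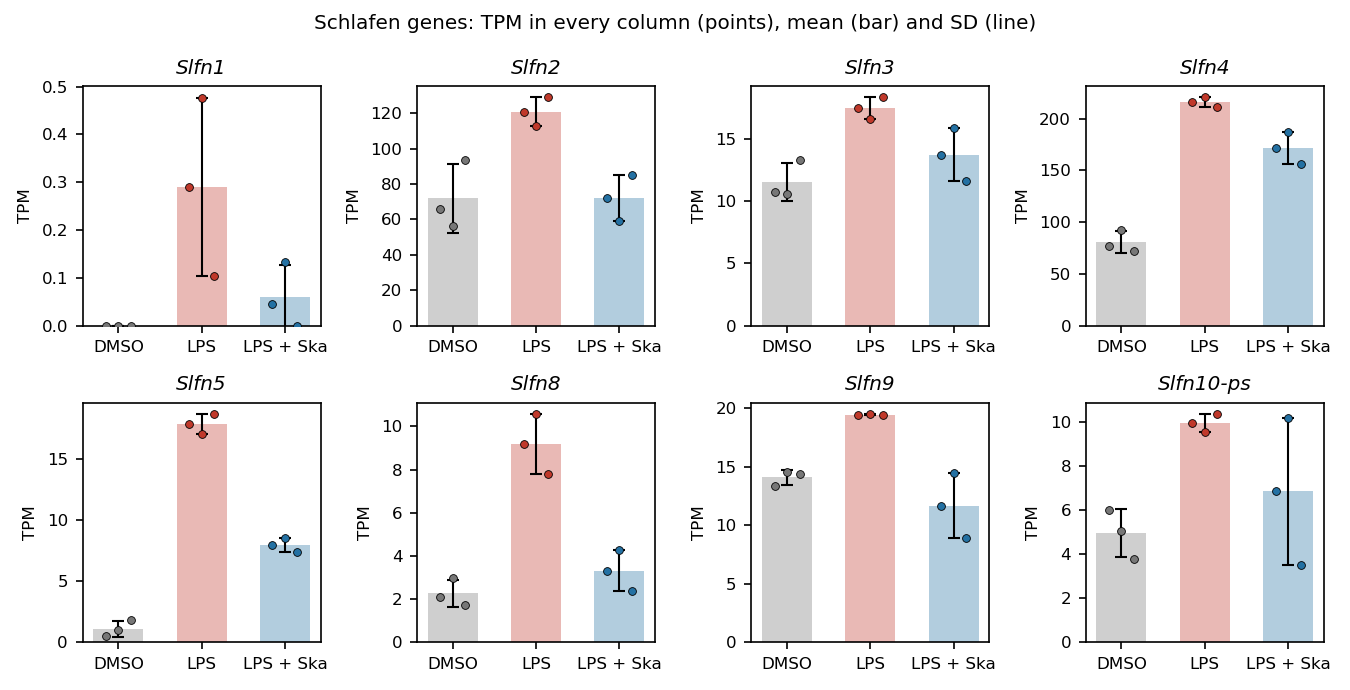
Level of each Schlafen gene in TPM, 1 panel per gene with its own linear axis from 0, for DMSO, LPS and LPS + Ska. Points are the 3 columns (replicates 5, 6 and 7 from left to right), bars the mean and lines the SD, cut at 0. In LPS and LPS + Ska, replicate 5 is the mean of the other 2 where all 3 are above 0. In all panels but that of Slfn1, which was at most 0.477 TPM, and that of Slfn10-ps, the LPS + Ska columns lay below the LPS columns.

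LPS was compared with DMSO to see how the family responded to the stimulus. Of the 6 members that reached the mean of 1 TPM needed for the test, 4 rose, Slfn2, Slfn4, Slfn5 and Slfn8, and none fell. A gene was called when limma's adjusted p was below 0.05 and the fold change, on the log2(TPM + 1) scale, was above 1.5 or below 0.67. Over all 12819 genes tested, 12.7% were called higher. The median log2 fold change of the 6 was 1.09, beside -0.067 for all genes tested. The columns of LPS lay above those of DMSO without overlap for 6 of 6 tested members, where 30.3% of all genes did so.

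Slfn5, a nuclear member of the long group that is known in humans as a repressor of interferon-responsive transcription, had the widest change of the family. Its columns were 0.503, 1.04 and 1.80 TPM in DMSO and 17.9, 17.0 and 18.7 TPM in LPS. The mean was 16.1 times that of DMSO, and the log2 fold change was 3.20 (SE 0.19, adjusted p = 1.4e-06). The DMSO columns differed among themselves more than 3 times, so the size of the change rests on low levels. The antisense gene Slfn5os overlaps Slfn5 on the minus strand, and the library kit does not mark strand, so reads of the pair cannot be told apart.

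Slfn8, also of the long group, rose from 2.10, 2.96 and 1.75 TPM to 9.17, 10.6 and 7.78 TPM. The lowest LPS column was above the highest DMSO column, the ratio of the means was 4.04, and the log2 fold change was 1.65 (SE 0.20, adjusted p = 9.9e-05). Its close relative Slfn9 had 13.4, 14.6 and 14.4 TPM in DMSO and 19.5, 19.5 and 19.4 TPM in LPS. The Slfn9 columns did not overlap, but the log2 fold change of 0.44 (SE 0.14, adjusted p = 0.022) was inside the fold limit. That p was 0.056 with no filter, 0.065 without DMSO replicate 5 and 0.053 to 0.059 without any 1 of the LPS columns. The ratio of Slfn8 to Slfn9 was 0.161 ± 0.0412 in DMSO, 0.471 ± 0.0704 in LPS and 0.282 ± 0.0152 in LPS + Ska (SD, n = 3), without overlap between the groups. The 2 genes thus stood in unequal proportions in the 3 groups.

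Slfn4 went from 77.4, 92.5 and 72.0 TPM to 216, 220.5 and 211 TPM. This was the largest gain of the family in TPM, and the log2 fold change was 1.42 (SE 0.095, adjusted p = 2.6e-06). Its neighbour and closest relative Slfn3, a gene studied in T cells and gut epithelium, had 10.8, 10.5 and 13.3 TPM in DMSO and 17.4, 16.6 and 18.3 TPM in LPS. Slfn3 was higher in each LPS column, with a log2 fold change of 0.56 (SE 0.12, adjusted p = 0.0035), just inside the fold limit. It passed that limit after median-ratio scaling of the columns (0.65), with a pseudocount of 0.1 (0.60), without DMSO replicate 7 (0.66) and without LPS replicate 6 (0.60).

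Slfn2 had 65.8, 56.4 and 93.6 TPM in DMSO and 121, 113 and 129 TPM in LPS. The groups did not overlap, although DMSO replicate 7 lay well above the other DMSO columns, and the log2 fold change was 0.77 (SE 0.18, adjusted p = 0.0047). Slfn1, the founder of the family and a regulator of T cell growth, was not tested because its mean over the 9 columns was below 1 TPM. It was listed at 0 in DMSO and at 0.291, 0.477 and 0.105 TPM in LPS, so no fold is given. Among the other genes of the name, Slfn10-ps rose from 6.01, 5.07 and 3.81 TPM to 9.97, 9.56 and 10.4 TPM (log2 fold change 0.90, SE 0.28, adjusted p = 0.021). Slfn14, known for cutting ribosomal RNA in immature red cells, reached at most 0.0678 TPM, and Slfnl1 was above 0 in DMSO replicate 6 alone, at 0.365 TPM.

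**Figure D3:**
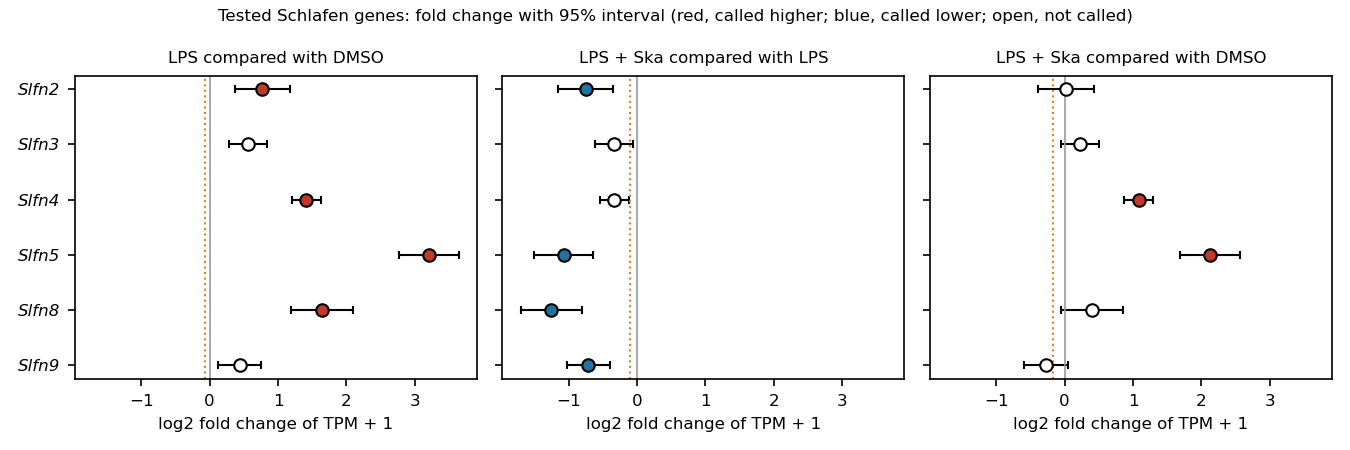
Log2 fold change of TPM + 1 (points) with the 95% interval (lines) for the 6 tested Schlafen genes in each of the 3 comparisons. Red points were called higher, blue points lower and open points were not called, and the orange dotted line marks the median of all 12819 genes tested. Slfn5 lay farthest to the right for LPS compared with DMSO (3.20), and all 6 points lay left of 0 for LPS + Ska compared with LPS.

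LPS + Ska was compared with LPS, the same LPS columns as above, to see what skatole changed in stimulated cells. Of the 6 tested members 4 fell, Slfn2, Slfn5, Slfn8 and Slfn9, and none rose. Over all genes tested, 6.14% were called lower, 787 genes against 429 called higher, and after median-ratio scaling 540 were lower and 595 higher. The median log2 fold change of the 6 was -0.73, beside -0.096 for all genes. The LPS + Ska columns lay below the LPS columns without overlap for 6 of 6 members, where 34.0% of all genes did so.

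Slfn8 had the widest log2 fold change of the 6. Its columns were 9.17, 10.6 and 7.78 TPM in LPS and 3.32, 4.28 and 2.36 TPM in LPS + Ska, and it fell by 1.25 on the log2 scale (SE 0.20, adjusted p = 0.0022). Slfn5 followed, from 17.9, 17.0 and 18.7 TPM to 7.97, 8.52 and 7.41 TPM, and fell by 1.07 (SE 0.19, adjusted p = 0.0039). Both long-group genes were at less than 0.5 times their mean level in LPS, with ratios of 0.362 for Slfn8 and 0.446 for Slfn5. Slfn9, the third long-group gene, fell from 19.5, 19.5 and 19.4 TPM to 11.7, 14.5 and 8.90 TPM, by 0.71 (SE 0.14, adjusted p = 0.0060). The LPS + Ska columns of Slfn9 were far apart, and without replicate 7 of that group it fell by 0.55 (adjusted p = 0.0058), inside the fold limit.

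The short and intermediate genes were split. Slfn2 fell from 121, 113 and 129 TPM to 72.0, 59.2 and 84.9 TPM, by 0.75 on the log2 scale (SE 0.18, adjusted p = 0.014). Its adjusted p stayed below 0.05 in every setting but came close to it in some. It was 0.041 with 2 recovered values for each tied group, 0.042 with no filter and 0.045 without LPS + Ska replicate 5. Without LPS replicate 5 or 7 it was 0.047 and 0.049. Slfn4 had 216, 220.5 and 211 TPM in LPS and 172, 187 and 156 TPM in LPS + Ska. Each of its LPS + Ska columns was lower, but the log2 fold change of -0.33 (95% interval -0.55 to -0.12, adjusted p = 0.030) was inside the fold limit. The adjusted p was 0.078 with 2 recovered values for each tied group, 0.098 after median-ratio scaling (-0.23), 0.062 with no filter, 0.065 to 0.089 without any 1 of the LPS columns, and 0.086 and 0.077 without LPS + Ska replicate 5 or 7. Slfn3 had 17.4, 16.6 and 18.3 TPM in LPS and 13.7, 15.8 and 11.6 TPM in LPS + Ska, with a log2 fold change of -0.34 (95% interval -0.62 to -0.056, adjusted p = 0.072). The values of Slfn3 and Slfn4, the pair with 83.9% identical residues, were nearly the same here, and whether their changes differed from those of the other members was not tested. Slfn1 was at 0.0448, 0.134 and 0 TPM in LPS + Ska. Slfn10-ps spread from 3.53 to 10.2 TPM in LPS + Ska, overlapped with LPS and was not called (-0.58, adjusted p = 0.16).

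LPS + Ska was also compared with DMSO, the same columns as above, to place the treated cells relative to resting cells. Slfn4 and Slfn5 were higher in LPS + Ska, 2 of 6 tested members, where 11.4% of all genes were called higher. That count was 1457 against 3243 called lower, and became 2212 against 2246 after median-ratio scaling, which moved the median of all genes by 0.17 from -0.18. The median of the 6 members was 0.31. The columns of 2 of 6 members lay above DMSO without overlap, beside 23.0% of all genes, and those of the other 4 overlapped.

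Slfn5 stood at 7.97, 8.52 and 7.41 TPM against at most 1.80 TPM in DMSO, with a log2 fold change of 2.13 (SE 0.19, adjusted p = 1.3e-05). Slfn4 stood at 172, 187 and 156 TPM against at most 92.5 TPM, with a log2 fold change of 1.08 (SE 0.095, adjusted p = 1.0e-05). These 2 genes were thus between their DMSO and LPS levels in every column. Slfn2 overlapped widely with DMSO, with a mean of 72.0 against 71.9 TPM and a log2 fold change of 0.02 (95% interval -0.38 to 0.42, adjusted p = 0.93). Its sign turned when DMSO replicate 5 or 6 or LPS + Ska replicate 7 was left out (-0.03, -0.14 and -0.10). For Slfn8 the log2 fold change was 0.40 (95% interval -0.056 to 0.85, adjusted p = 0.11), for Slfn3 0.23 (95% interval -0.053 to 0.51, adjusted p = 0.14) and for Slfn9 -0.27 (95% interval -0.59 to 0.044, adjusted p = 0.12). These 4 intervals include 0, which does not show that the levels were equal, and some values moved with the settings while staying inside the fold limit. After median-ratio scaling the log2 fold change was 0.41 for Slfn3 (adjusted p = 0.0090), 0.53 for Slfn8 (adjusted p = 0.039) and -0.09 for Slfn9 (adjusted p = 0.54). Slfn3 was also below 0.05 without DMSO replicate 7 or LPS + Ska replicate 7 (0.33 in both, adjusted p = 0.048 and 0.034). So was Slfn8 without DMSO replicate 6 (0.54, adjusted p = 0.049), without LPS + Ska replicate 7 (0.56, adjusted p = 0.031) and with the replicate number as a block (0.40, adjusted p = 0.018), and Slfn9 without LPS + Ska replicate 6 (-0.43, adjusted p = 0.0091).

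The cluster was then compared with its surroundings. Of the protein-coding genes read among the 6 annotated genes on each side, 3 of 5 were tested, and none was called in any of the 3 comparisons. They were Rad51d, a recombination gene, and Nle1, a ribosome assembly factor, on the Slfn5 side, and Ap2b1, an endocytic adaptor, on the Slfn14 side. Their log2 fold changes with LPS ran from -0.44 for Nle1 (adjusted p = 2.8e-04) to 0.35 for Ap2b1 (adjusted p = 0.0067), with a median of -0.33. The columns of Nle1 and Ap2b1 did not overlap between LPS and DMSO, so these genes were uncalled because of the fold limit. Those of Rad51d overlapped (adjusted p = 0.055). Between LPS + Ska and LPS the log2 fold changes ran from -0.42 for Ap2b1 (adjusted p = 0.0076) to -0.06 for Nle1 (adjusted p = 0.49). The value of Ap2b1 was larger in size than those of the members Slfn3 (-0.34) and Slfn4 (-0.33). Fndc8 and Unc45b, both on the Slfn5 side, were below the filter.

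Inside the cluster, 3 non-coding genes without a Schlafen name passed the filter and were looked at after their values were seen. Gm11425, a pseudogene next to Slfn10-ps, rose with LPS from 8.20 to 16.8 TPM (log2 fold change 0.96, adjusted p = 2.6e-04) and was at 15.8 TPM with skatole added (-0.08 from LPS, adjusted p = 0.70). AI662270, a long non-coding RNA beyond Slfn3, was the most abundant transcript of the region with 238, 301 and 324 TPM in DMSO, LPS and LPS + Ska. It was called in no comparison, but it lay above DMSO without overlap in both other groups, inside the fold limit. The log2 fold change was 0.33 with LPS (adjusted p = 2e-04) and 0.44 between LPS + Ska and DMSO (adjusted p = 3e-05). Gm11427, the pseudogene that shares stretches with Slfn3, stood at 102, 97.2 and 99.8 TPM and was not called either (-0.07 with LPS, adjusted p = 0.43). It was thus far above Slfn3 itself in every group.

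**Figure D4:**
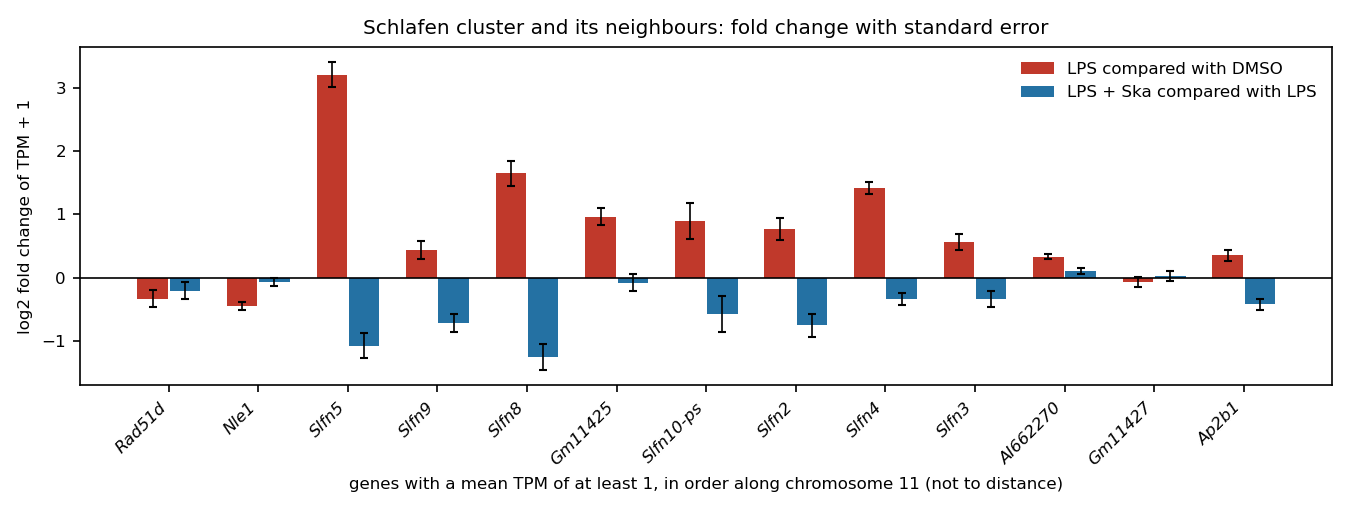
Log2 fold change of TPM + 1 with its standard error for the genes of the Schlafen cluster and the neighbours read here with a mean of at least 1 TPM, in their order along the chromosome and not to distance. Red bars compare LPS with DMSO and blue bars LPS + Ska with LPS. The red bars of the Schlafen genes ran from 0.44 (Slfn9) to 3.20 (Slfn5), while those of the flanking protein-coding genes shown ran from -0.44 (Nle1) to 0.35 (Ap2b1).

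Genes of the interferon pathway were read beside the members. The ligand gene Ifnb1 was above 0 in LPS alone, with a mean of 0.0496 TPM, and was not tested. Of the 4 receptor chains, Ifnar1 and Ifnar2, the type I receptor, fell with LPS, by 0.63 (adjusted p = 1.2e-04) and 1.01 (adjusted p = 2.8e-06) on the log2 scale. The interferon gamma receptor genes Ifngr1 and Ifngr2 were inside the fold limit, with -0.54 and -0.33. None of the 4 was called between LPS + Ska and LPS. Of the 3 kinases that the receptors use, Jak2 rose with LPS (0.64), Tyk2 fell by 0.81, and Jak1 was not called (0.41). None of the 3 was called between LPS + Ska and LPS.

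The transcription factors moved in both directions. Irf9, the DNA-binding factor of the interferon-activated complex, rose with LPS (1.90) and had a log2 fold change of -0.34 with skatole, inside the fold limit. Stat2 was not called with LPS (-0.25) and fell by 0.85 with skatole (adjusted p = 0.0063). Irf7, which amplifies interferon transcription, rose by 4.54 with LPS and fell by 1.33 with skatole (adjusted p = 0.0037). Irf3 and Irf8 fell with LPS by 0.97 and 1.20, Irf1 was inside the fold limit (-0.56), and none of these 3 was called with skatole.

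Among the inhibitors, Usp18, which removes ISG15 and blocks the type I receptor, rose by 5.09 with LPS and fell by 1.36 with skatole (adjusted p = 0.010), while Socs1 stayed below the filter. In all, 4 of 14 tested signalling genes rose and 5 fell with LPS, with a median of -0.43, and 0 rose and 3 fell between LPS + Ska and LPS, with a median of -0.21. In LPS + Ska compared with DMSO 4 rose and 7 fell. Over all 12819 genes tested, 1630 were called higher and 2559 lower with LPS, and 429 and 787 between LPS + Ska and LPS. Between LPS + Ska and DMSO these counts were 1457 and 3243. Of the interferon effector genes 20 of 22 tested rose with LPS and none fell, with a median of 2.87, and 18 of 22 fell with skatole and none rose, with a median of -1.24. Compared with DMSO, 17 of 22 were higher in LPS + Ska and 1 was lower, with a median of 1.13. Ifit1, which binds foreign RNA, rose by 3.21 with LPS and fell by 2.26 with skatole, and Ifit3 rose by 1.52 and fell by 1.34, while Ifit2 was not called (0.18 and -0.47). The member medians of 1.09 and -0.73 had the same signs as those of the effector genes and were smaller in size. Both comparisons use the same LPS columns, with opposite sign, so their signs are not independent of each other.

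Because Schlafen proteins act on transfer RNA, genes of transfer RNA cleavage and methylation were read too, of which 4 of 6 were tested. Ang, the ribonuclease angiogenin, fell with LPS from 4.62 to 0.810 TPM (log2 fold change -1.63, adjusted p = 2.3e-04) and was at 1.31 TPM in LPS + Ska. Rnh1, the ribonuclease inhibitor that binds angiogenin, fell from 369 to 222 TPM (-0.73, adjusted p = 2.6e-06) and was at 285 TPM in LPS + Ska, with a log2 fold change of 0.36 from LPS. Trdmt1 and Nsun2, methyltransferases that modify transfer RNA, were not called in any comparison. None of the 4 was called between LPS + Ska and LPS, and Ang was lower in LPS + Ska than in DMSO (-1.33). Ang2 and Ang4 were listed at 0.

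Finally, the genes whose pattern over the 9 columns was most like that of each member were ranked by Pearson's r of log2(TPM + 1). The closest to Slfn5 was Cd80, a ligand that costimulates T cells (r = 0.997), followed by Ddx10 and Abi2. For Slfn4 they were Ppp2r3c (r = 0.996), Rnpc3 and Cited2. For Slfn8 they were Ift80 (r = 0.991), Zfp110 and Nf1. The closest to Slfn9 were Ankle2 (r = 0.996), Cand1 and Diexf, to Slfn3 Iws1 (r = 0.995), Rfk and Twsg1, and to Slfn2 Rnf19b (r = 0.994), Rcl1 and Rpl5. No member was among the 3 closest of another. An r of at least 0.95 was reached by 479 genes for Slfn4, 467 for Slfn5, 189 for Slfn3, 105 for Slfn9, 73 for Slfn8 and 5 for Slfn2. These r values describe 9 columns in 3 groups that share their libraries and, in 2 groups, the tie described above.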

How the data were processed

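RNA-seq of RAW264.7 cells was deposited by the authors as 1 table of TPM values (transcript abundances scaled for length and to a common total) with 9 columns, 3 each for DMSO, LPS and LPS + Ska. The submitters' processing notes name fastp 0.20.1, HISAT2 2.2.1, StringTie 2.0 and mm10, and the annotation is not given in the sources used here. The library kit does not mark strand, so antisense reads cannot be told apart. TPM keeps no depth, so depth is unknown and no counting interval is given, and the tied columns limit the precision further. Ensembl IDs were matched to symbols for 55141 of 55401 genes.

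Genes with a mean of at least 1 TPM (12819) were fitted on log2(TPM + 1), which understates changes of low genes, with limma 3.58.1 (lmFit, eBayes with trend, R 4.3.3) over all 9 columns, and p-values were adjusted by Benjamini-Hochberg over all of them. A call required both an adjusted p under 0.05 and a fold change over 1.5 or under 0.67. The script was tested on simulated data. Alternatives were a pseudocount of 0.1, no filter or a mean of 5 TPM, median-ratio scaling, the compared groups alone, no trend, a replicate block, the adjusted p alone, leaving out each column, and 2 recovered values per tied group (replicate 5 plus and minus 0.5 times the distance from replicate 5 to replicates 6 and 7).

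Named genes were all members, the other genes with a Schlafen name, interferon signalling and transfer RNA genes, coding neighbours, the 3 genes most like each tested member, and the first 3 interferon effector genes. One coding neighbour and 1 signalling gene are not reported here and were left out of the list counts. Members and lists were chosen with earlier results of these data known. Proteins were translated from GENCODE M21 coding sequences, in place of a planned RefSeq protein table, and aligned with Biopython 1.88. Promoters were from RefSeq, GRCm38, with a window for 7 of 7 members, and the outermost start was used for Slfn8.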

Additional observations from a re-analysis of the deposited data

How the results depend on the processing

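For the 6 tested Schlafen genes in 3 comparisons, 295 of 303 alternative values kept their direction and their call, which needs both thresholds. Part of this count was fixed in advance. Changing the filter, the trend, the block or the columns of the group outside a comparison leaves the log2 fold change itself as it was. In those settings no direction could turn, and no change inside the fold limit could become called. Leaving out replicate 5 of LPS or of LPS + Ska also removed no independent value where all 3 columns were above 0. For Slfn2 between LPS + Ska and LPS, the log2 fold change of -0.749 became -0.748 and -0.757. In 22 of these 295 the adjusted p alone crossed 0.05 inside the fold limit, 8 of them for Slfn4 between LPS + Ska and LPS and 5 for Slfn9 with LPS. The rest were 3 for Slfn3, 4 for Slfn8 and 1 for Slfn9 between LPS + Ska and DMSO, and 1 for Slfn3 between LPS + Ska and LPS. Among the values outside the 295, Slfn3 passed the fold limit with LPS in 4, and Slfn9 dropped inside it between LPS + Ska and LPS in 1. In the other 3, Slfn2 turned sign between LPS + Ska and DMSO (-0.03, -0.14 and -0.10, without DMSO replicate 5, DMSO replicate 6 and LPS + Ska replicate 7). That change of Slfn2 ranged from -0.14 to 0.22 over all columns left out in turn. Over all settings, 3 to 6 members were called higher with LPS, 3 to 5 lower between LPS + Ska and LPS, and 2 higher between LPS + Ska and DMSO. With 2 recovered values per tied group these counts were 4, 4 and 2. A mean of at least 5 TPM leaves Slfn8 out of the test and gave 3 in the first and the second comparison. Counts over all genes moved more. With the adjusted p alone, 3354 genes were higher and 4380 lower with LPS, 1139 higher and 2524 lower between LPS + Ska and LPS, and 2915 higher and 5201 lower between LPS + Ska and DMSO. With a mean of at least 5 TPM, 516 were lower between LPS + Ska and LPS, and with median-ratio scaling 2212 were higher between LPS + Ska and DMSO. The adjusted p alone drops the fold limit, so its counts could only rise. A mean of at least 5 TPM leaves genes out of the test. Median-ratio scaling moved the median of all genes by 0.17 between LPS + Ska and DMSO. What else moved the counts was not tested.

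The labels do not say that the shared replicate numbers pair the columns. Same-numbered deviations correlated at -0.032 to 0.080 between DMSO and the other groups, and at 0.38, 0.15 and 0.13 between LPS and LPS + Ska, where the tie leaves fewer than 3 separate pairs, so whether those columns are paired is not settled. With the number as a block, 1649 genes were higher with LPS, 771 lower between LPS + Ska and LPS and 1469 higher between LPS + Ska and DMSO, and none of the 18 member calls changed. The block moved the log2 fold change of no member, since every group has each number, but it changed standard errors in both directions. They fell from 0.18 to 0.10 for Slfn2, from 0.20 to 0.11 for Slfn8 and from 0.095 to 0.067 for Slfn4. For Slfn3 the standard error rose from 0.124 to 0.139, and for Slfn5 (0.194 to 0.190) and Slfn9 (0.141 to 0.135) it changed little. Read depth is unknown, so what depth limits could not be set, and Slfn1, Slfn14 and Ifnb1 are too low to rank between groups.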
